A study of Mus musculus with 3 samples.

Results

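The genes described here are 9 members of the Hedgehog pathway: the ligands Shh, Ihh and Dhh, the receptor Ptch1, the transducer Smo, the transcription factors Gli1, Gli2 and Gli3, and the ligand-binding protein Hhip. They were taken by symbol, and each matched 1 of the 31054 features that were counted. Single-cell RNA was captured from 3 wild-type mouse embryos of the strain C57BL/6 x 129 SvEv at embryonic day 8.0. Somites are then absent or have just begun to form (0 to 2 by the sample labels). Each embryo gave 1 library from droplets, the extraembryonic tissue had been taken off, and there was no mutant and no treatment, so every comparison is between cell types of the same embryos. All values are counts of unique molecular identifiers (UMIs), which count each captured transcript once, and levels are given as CPM, the UMIs of a gene per 1000000 UMIs of all genes, for the summed cells of a lineage in an embryo, as mean ± SD over embryos.

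Hedgehog ligands are secreted proteins that travel from the cells that make them to neighbouring cells. There they bind Ptch1, which in their absence keeps the membrane protein Smo inactive at the primary cilium. Released Smo changes the processing of the Gli factors, of which Gli2 acts mostly as an activator and Gli3 mostly as a repressor, while Gli1 is itself switched on by the pathway. Ptch1 and Hhip are induced by the signal too and bind the ligand, so that Ptch1, Gli1 and Hhip are widely read as targets that mark responding cells. In the early mouse embryo, Shh is known from the node, the notochord and the gut, and Ihh from the endoderm.

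Of 23533 barcodes, 21558 passed quality control, with 5778, 7950 and 7830 cells and a median of 27699, 14622.5 and 16361.5 UMIs per cell in embryos 1, 2 and 3. Cells were placed in 17 lineages by the UMIs of 109 marker genes, none of them a Hedgehog member, and are called by the lineage with the ending -like. This placed 12709 cells, while 8849 stayed without a lineage. These met no lineage, had too small a margin between lineages, or also met a lineage not treated as a neighbour of the best one. Of the cells that also lay in a cluster with a name, 92% had the same name by both ways. In 13 of the 17 lineages all markers were highest in their own cells, and the other lineages missed between 1 and 2 of theirs. The axial-mesoderm-like cells (32, 38 and 33 per embryo) were picked by T, Foxa2, Nog, Chrd, Gsc and Sox9. Gsc, a gene of the prechordal plate in front of the notochord, stood at 38.9 CPM in these cells pooled over embryos. The next lineage, forebrain-like cells, had 6.94 CPM. The axial-mesoderm-like cells may therefore hold both notochord and prechordal plate cells, which were not told apart. The left-right-organizer-like cells (50, 51 and 73) had the pit-cell genes Noto and Foxj1 and the crown-cell gene Dand5 among their markers. Both lineages had few cells, so their values rest on fewer UMIs than those of most lineages. Embryo 1 had 2 erythroid-like cells and embryo 2 had 8 primordial-germ-cell-like cells, and these sums were left out.

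Among cells with a lineage, Shh (chr5:28456815-28467256, minus strand, GRCm38) was found almost wholly in axial and endoderm cells. In axial-mesoderm-like cells its level was 266, 614 and 245 CPM in embryos 1, 2 and 3, a mean of 375 ± 208 CPM (SD, n = 3). In left-right-organizer-like cells it was 243, 237 and 116 CPM, or 199 ± 71.5 CPM. Embryo 2 stood above the other embryos in the axial-mesoderm-like cells and embryo 3 below them in the left-right-organizer-like cells, yet in each embryo the axial value was the higher. Definitive-endoderm-like cells, which form the gut lining, followed with 5.58, 12.7 and 6.70 CPM. No other lineage reached a mean of 1 CPM, the next being mesenchyme-like cells at 0.623 ± 0.609 CPM.

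Shh was higher than the mean of the other lineages in 3 of 17 lineages, which were these 3 (edgeR quasi-likelihood test, Benjamini-Hochberg adjusted p = 4.69e-32, 4.9e-31 and 5.19e-11), and in each of them it was higher in 3 of 3 embryos. Over all genes, 17.2% of the tests of a gene in a lineage came out higher and 13.2% lower. The primordial-germ-cell-like cells held no UMI of Shh, with 3 UMIs standing for 4.71 and 4.17 CPM in embryos 1 and 3. The logarithm of their level therefore has no finite value, nor has a mean of logarithms that includes it. So a lower level of Shh was not called in the other 14 lineages, the primordial-germ-cell-like cells among them. The same held for Ihh, which was called higher in 3 lineages. For the same reason the fitted fold changes of Shh set no size and are not given.

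By cells, a UMI of Shh was seen in 84.4%, 94.7% and 84.8% of the axial-mesoderm-like cells and in 84.0%, 84.3% and 75.3% of the left-right-organizer-like cells of embryos 1, 2 and 3. Erythroid-like cells, which should lack it, had a UMI in 0.234% and 0.312% of cells of embryos 2 and 3. Their median depth was 15161.5 UMIs, against 15726 in the axial-mesoderm-like and 19373 in the left-right-organizer-like cells. With all UMIs, the lowest share over embryos lay above the highest erythroid share in 6 of 16 lineages, or in 10 with lineages from clusters. After each cell was thinned to 5000 UMIs, this held in 3 of 16 lineages. In definitive-endoderm-like cells the share was 13.1% (95% exact interval 9.41 to 17.6), 17.9% (13.7 to 22.7) and 10.0% (6.54 to 14.6), intervals that cover counting error only.

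**Figure D1:**
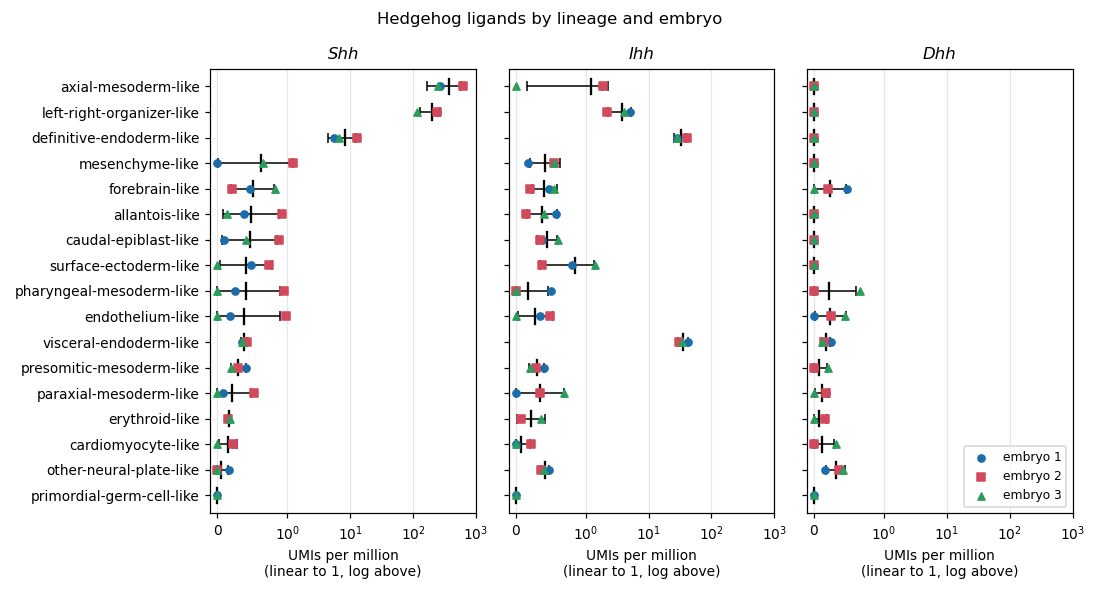
Levels of Shh, Ihh and Dhh in CPM (x axis, linear to 1 and logarithmic above) in the 17 lineages (rows, ordered by the mean of Shh). Each point is the summed cells of an embryo, the vertical bar is the mean and the whisker the SD. Shh lay at 116 or above in the axial-mesoderm-like and left-right-organizer-like sums, Ihh between 28.3 and 42.4 in both kinds of endoderm, and Dhh under 1 in all lineages.

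Ihh (chr1:74945315-74951672, minus strand) had another pattern. Visceral-endoderm-like cells, which wrap the early embryo and carry nutrients, held 42.4, 30.9 and 34.2 CPM in embryos 1, 2 and 3. Definitive-endoderm-like cells held 28.3, 40.4 and 28.4 CPM. The ranges of both endoderm lineages overlapped, with definitive-endoderm-like cells lower in embryos 1 and 3 and higher in embryo 2. The fitted difference of -0.41 ± 0.18 (log2, definitive minus visceral, SE) missed the threshold with an adjusted p of 0.0504 (edgeR), or passed it with 0.0268 when the embryo was a block. It includes a composition factor (TMM), which the CPM values do not. Without that factor the median of this comparison over all genes shifted by 0.26 (log2). Left-right-organizer-like cells had 5.10, 2.17 and 4.01 CPM, below the endoderm in each embryo, from 7, 2 and 8 UMIs, and this too was above the mean of the other lineages (edgeR, adjusted p = 3.31e-05). In axial-mesoderm-like cells Ihh was 1.80, 1.88 and 0 CPM from 3 UMIs in all.

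A UMI of Ihh was seen in 69.5%, 41.3% and 45.0% of visceral-endoderm-like cells, where embryo 1 was also the deepest library. After thinning to 5000 UMIs these shares were 21%, 15.9% and 16.5%. In definitive-endoderm-like cells the shares were 42.9%, 37.4% and 35.1%, or 12.8%, 18.1% and 14.1% after thinning. Erythroid-like cells had 0.117% and 0.623%.

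Dhh (chr15:98891152-98898540, minus strand), the third ligand, was hardly captured, with 46 UMIs in 46 of 21558 cells. It did not pass the filter on low counts and was not tested. In axial-mesoderm-like cells it had 0 UMIs, where 3 UMIs would stand for 2.71, 5.64 and 4.83 CPM in embryos 1, 2 and 3. The highest mean of a lineage was 0.310 ± 0.132 CPM, in other-neural-plate-like cells, and it overlapped the next lineage in range.

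Seen from the side of the transcripts, between 59.8% and 67.9% of the Shh UMIs of an embryo lay in left-right-organizer-like, axial-mesoderm-like and definitive-endoderm-like cells, which made up 5.10% of all cells. A mean of 31.8% ± 5.59 of the Shh UMIs lay in cells without a lineage. When those cells took the name of their cluster, the 3 lineages held between 86.7% and 90.6% of the Shh UMIs with 7.52% of the cells. For Ihh, definitive-endoderm-like and visceral-endoderm-like cells held between 73.1% and 83.2% of the UMIs by markers, with 14.6% of all cells. With the cluster names they held between 91.6% and 94.6%, with 17.5% of the cells. Visceral-endoderm-like cells numbered 262, 1151 and 922 in embryos 1, 2 and 3. Embryo 1 had the fewest of them and their lowest share of Ihh, although their CPM was highest there. How much of this tissue was left on each embryo was not tested. Of the 270 cells with Shh and no lineage, 81 lay in clusters named definitive endoderm, 53 in the left-right organizer and 33 in the axial mesoderm. The 81 endoderm cells held 181 UMIs, while the 53 and 33 cells held 268 and 217.

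**Figure D2:**
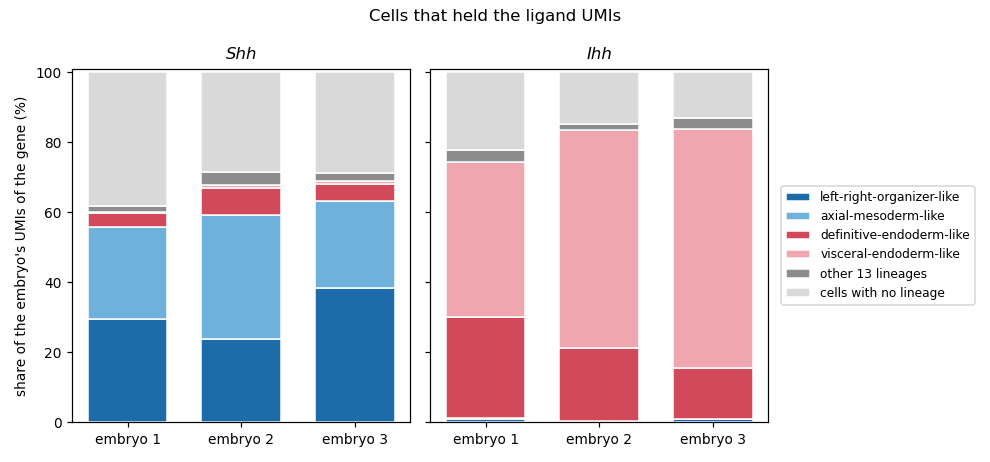
Share of all UMIs of Shh (left) and Ihh (right) in each embryo (bars, in %) that lay in cells of the named lineages, in the other 13 lineages together and in cells without a lineage. Axial-mesoderm-like and left-right-organizer-like cells made up most of the assigned Shh, with definitive-endoderm-like cells between 4.08% and 7.50%. Visceral-endoderm-like cells, which numbered 262, 1151 and 922 in embryos 1, 2 and 3, held between 44.3% and 68.5% of Ihh.

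The receptor Ptch1 (chr13:63508328-63573598, minus strand) was the most widely captured of the targets, with 45943 UMIs in 12854 cells, and it was highest where Shh was made. Axial-mesoderm-like cells had 372, 379 and 299 CPM, or 350 ± 44.4 CPM, and these values lay above those of every other lineage. Mesenchyme-like cells, the Bmp4- and Hand1-bearing mesoderm that made next to no ligand, followed with 162, 225 and 238 CPM, and left-right-organizer-like cells with 216, 209 and 187 CPM overlapped them. Next stood cardiomyocyte-like cells at 147 ± 31.2 CPM and paraxial-mesoderm-like cells, which form the somites, at 125 ± 6.49 CPM. At the other end were erythroid-like cells at 31.2 ± 3.84 CPM (n = 2) and, lowest of all, visceral-endoderm-like cells at 20.8, 23.0 and 21.9 CPM. The share of visceral-endoderm-like cells with a UMI of Ptch1 was 37.0%, 24.5% and 26.9% in embryos 1, 2 and 3. In erythroid-like cells of embryos 2 and 3 it was 32.9% and 39.6%, so the endoderm share was not above the erythroid share. Gli3 was seen in 3.28% and 5.92% of these erythroid-like cells. How much of the erythroid share of Ptch1 is background was not tested.

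Ptch1 was above the mean of the other lineages in 6 of 17 lineages and below it in 7, where 17.2% and 13.2% of the tests over all genes were. The increases over that mean were 4.54-fold in axial-mesoderm-like cells (log2 2.18 ± 0.12 SE, adjusted p = 9.63e-20), 2.78-fold in mesenchyme-like cells (log2 1.47 ± 0.09, adjusted p = 9.78e-18) and 2.47-fold in left-right-organizer-like cells (log2 1.30 ± 0.11, adjusted p = 4.68e-13), all by edgeR and in 3 of 3 embryos. In paraxial-mesoderm-like cells it was 0.65 ± 0.10 (log2, adjusted p = 2.49e-06), which was not called with lineages taken from clusters (0.24, adjusted p = 0.146). The largest decrease was -1.76 ± 0.13 in visceral-endoderm-like cells (adjusted p = 2.07e-16). The increase in allantois-like cells was lost by DESeq2 (0.26, adjusted p = 0.0783), by limma (0.28, 0.0789) and in other alternatives. The decrease in other-neural-plate-like cells was lost with lineages from clusters (-0.14, edgeR adjusted p = 0.49). That in primordial-germ-cell-like cells was lost without a composition factor (-0.71, edgeR adjusted p = 0.0519) and in other alternatives. Ordered by mean, 7 of the 16 neighbouring pairs of lineages did not overlap in range over embryos, the most of any member. Ptch1 also had the most UMIs of the members, and this count was not taken over all genes.

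Gli1 (chr10:127329882-127341974, minus strand), the Gli factor that the signal induces, had 2697 UMIs in all and put the same lineage on top. Its level was 28.0, 18.8 and 29.0 CPM in axial-mesoderm-like cells and 19.7, 7.59 and 11.0 CPM in left-right-organizer-like cells, ranges that just overlapped. Paraxial-mesoderm-like cells at 9.72 ± 2.05 CPM, pharyngeal-mesoderm-like cells at 9.25 ± 2.28 CPM and cardiomyocyte-like cells at 9.05 ± 2.96 CPM could not be told from each other. In mesenchyme-like cells, where Ptch1 stood so high, Gli1 was 5.22 ± 0.214 CPM and did not pass the test (log2 0.39 ± 0.20, adjusted p = 0.148). Visceral-endoderm-like cells had 0.821 ± 0.207 CPM, close to the 0.784 ± 0.148 CPM of erythroid-like cells. Gli1 was called higher in 6 lineages, by log2 2.76 ± 0.27 in axial-mesoderm-like cells (edgeR, adjusted p = 9.44e-11), and lower in 5.

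Hhip (chr8:79965851-80058006, minus strand) differed from the other targets in its order. With 1150 UMIs it was the sparsest of them, and definitive-endoderm-like cells led with 11.8, 7.89 and 7.17 CPM from 97, 43 and 31 UMIs. Axial-mesoderm-like cells had 9.02, 5.64 and 8.05 CPM from only 10, 3 and 5 UMIs, and overlapped them. Mesenchyme-like cells at 5.81 ± 2.91 CPM, cardiomyocyte-like cells at 5.70 ± 2.50 CPM and pharyngeal-mesoderm-like cells at 4.82 ± 3.31 CPM formed the rest of the upper group. In left-right-organizer-like cells Hhip was 1.46, 1.08 and 1.5 CPM from 6 UMIs in all. It was called neither higher nor lower than the mean of the other lineages there. These values overlapped those of paraxial-mesoderm-like cells, at 1.03 ± 0.351 CPM. Hhip was above the mean of the other lineages in 5 of 17 lineages, by log2 2.78 ± 0.26 in definitive-endoderm-like cells (edgeR, adjusted p = 1.23e-12), 2.20 ± 0.27 in mesenchyme-like cells (adjusted p = 4.24e-09), 2.20 ± 0.31 in cardiomyocyte-like cells (adjusted p = 2.84e-07) and 2.56 ± 0.54 in axial-mesoderm-like cells (adjusted p = 0.000453). The axial call was lost without embryo 1, where the value was 2.26 with an adjusted p of 0.0546 (edgeR). The pharyngeal call (1.55 ± 0.45, adjusted p = 0.0163) was lost without embryo 2 (1.27, adjusted p = 0.192).

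**Figure D3:**
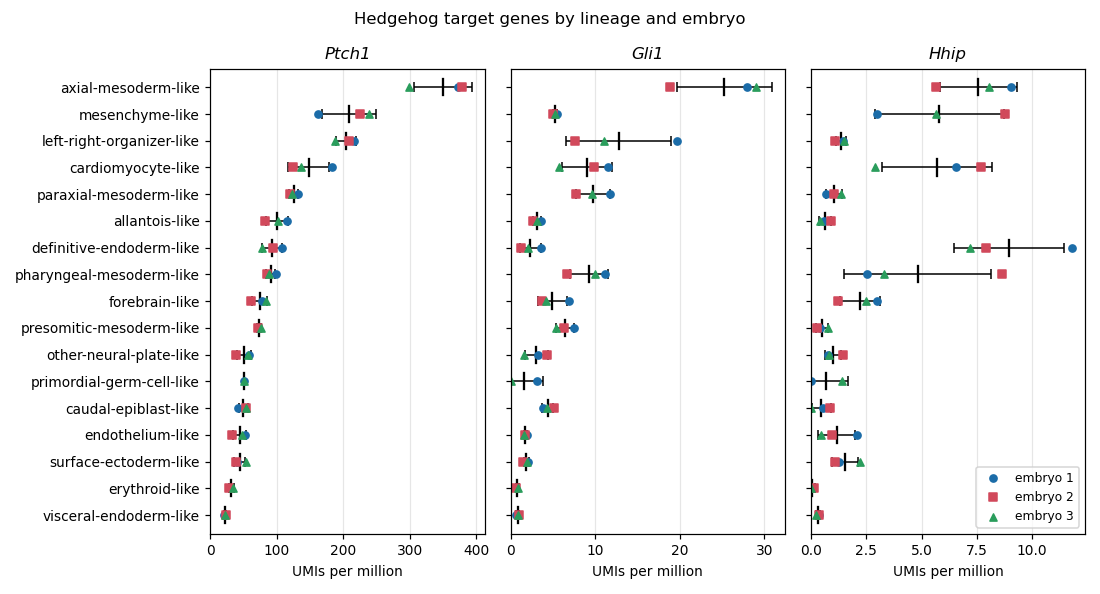
Levels of Ptch1, Gli1 and Hhip in CPM (x axis, linear) in the 17 lineages, ordered by the mean of Ptch1. Points are embryos, the vertical bar the mean and the whisker the SD. Axial-mesoderm-like cells were highest for Ptch1 at 350 and Gli1 at 25.2, while Hhip was highest in definitive-endoderm-like cells at 8.94. In left-right-organizer-like cells Hhip was 1.35, from 6 UMIs in all.

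Read by lineage, 5 of the 8 members tested were above the mean of the other lineages in axial-mesoderm-like cells (Shh, Ptch1, Gli1, Hhip and Smo), where 8.82% of all genes were. Left-right-organizer-like cells also had 5 (Shh, Ihh, Ptch1, Gli1 and Smo), with 20.7% of all genes, but the Smo call (0.31) was lost without embryo 1 (0.27, adjusted p = 0.0893) or 3 (0.26, 0.107) and with lineages from clusters (0.11, 0.31). Both lineages were also compared directly, to see how the members differ between the lineages with the highest Shh. Of the 8 members, 4 passed the test, all lower in left-right-organizer-like cells and all in 3 of 3 embryos, where 10.2% of all genes passed in either direction. Ptch1 was lower by 1.78-fold (log2 -0.83 ± 0.16 SE, edgeR adjusted p = 0.000304), and its adjusted p stayed at or under 0.00862 in all alternatives. The other calls were thinner, although no alternative turned their direction. Shh was lower with -0.96 ± 0.27 (adjusted p = 0.012), but missed the threshold by DESeq2 (-0.95, adjusted p = 0.148), without embryo 2 (-0.60, 0.19) or 3 (-0.90, 0.0929) and with lineages from clusters (-0.98, 0.0619). Gli1 was lower with -1.02 ± 0.33 (adjusted p = 0.0365) and missed it without embryo 1 (-1.28, 0.0619), 2 (-0.99, 0.12) or 3 (-0.84, 0.324), and also without a composition factor (0.052), with lineages from clusters (0.0543) and under the stricter lineage rule (0.0719). Hhip was lower with -2.51 ± 0.76 (adjusted p = 0.0245) and missed it without embryo 1 (-2.30, 0.255), 2 (-2.56, 0.0671) or 3 (-2.64, 0.105), with lineages from clusters (-1.64, 0.105) and without the highest doublet scores (-2.38, 0.058).

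In visceral-endoderm-like cells, 6 of 8 members were below the mean of the other lineages (Ptch1, Smo, Gli1, Gli2, Gli3 and Hhip), against 32.7% of all genes, while Ihh was above it (edgeR, adjusted p = 6.15e-34). In definitive-endoderm-like cells, 4 were above (Shh, Ihh, Hhip and Smo), against 25.7% of all genes, and 2 were below (Gli2 and Gli1). Of all genes called in this lineage, 57% were higher. The Gli1 call was lost in some alternatives. Set directly against each other, the endoderm lineages differed in 7 of 8 members, all higher in the definitive lineage and in 3 of 3 embryos, but here 60.7% of all genes differed. The differences (log2, definitive minus visceral) were 4.46 ± 0.44 for Hhip, 4.06 ± 0.50 for Shh, 2.43 ± 0.19 for Gli3, 2.09 ± 0.10 for Smo and 1.81 ± 0.16 for Ptch1, with edgeR adjusted p between 3.35e-22 and 2.32e-09. For Gli2 (0.87 ± 0.26, edgeR adjusted p = 0.00415) and Gli1 (1.22 ± 0.36, adjusted p = 0.00307) the call was lost without embryo 1, with an adjusted p of 0.0719 and 0.334. The Gli2 call was also lost without embryo 3 (0.0532) and with lineages from clusters (0.50, 0.0742), and the Gli1 call by limma (0.68, 0.092).

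Definitive-endoderm-like cells fell mainly into a pair of clusters that were found without the Hedgehog members, 411 cells with high Otx2 and Hhex, known from the foregut, and 406 cells with high Cdx2, known from the hindgut. The Cdx2 level was 224 ± 21.5 CPM in the latter against 10.3 ± 4.76 CPM in the former. Hhip was 16.2 ± 4.17 CPM in the Otx2-high cells, between 13.1 and 20.9 CPM over embryos, and 3.53 ± 0.215 CPM in the Cdx2-high cells, between 3.36 and 3.77 CPM. Ptch1 showed the same order with 123 ± 14.4 against 69.2 ± 8.20 CPM, again without overlap. Gli1 had few UMIs, 29 and 13, and overlapped in range, from 1.63 to 5.42 CPM against 1.01 to 1.65 CPM. Ihh had the opposite order, from 19.6 to 26.3 CPM in the Otx2-high and from 30.9 to 53.4 CPM in the Cdx2-high cells. Shh overlapped, with 9.09 ± 1.67 and 7.87 ± 5.59 CPM, as did Smo, with 87.0 ± 13.9 and 90.1 ± 3.71 CPM. These values are given without a test, because the clusters come from the same cells and were looked at after they were found.

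**Figure D4:**
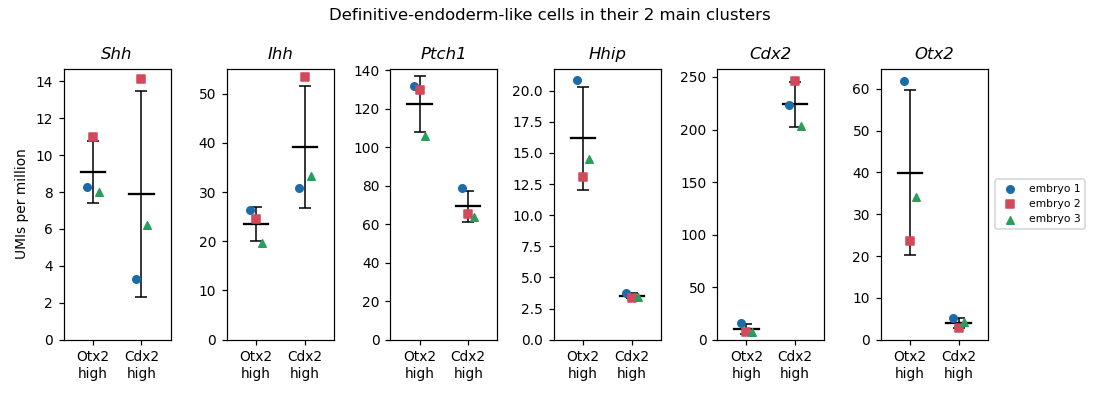
Levels in CPM (y axes, each from 0) of Shh, Ihh, Ptch1, Hhip, Cdx2 and Otx2 in definitive-endoderm-like cells of the Otx2-high and the Cdx2-high cluster. Points are embryos, the horizontal bar the mean and the whisker the SD. Hhip and Ptch1 were higher in the Otx2-high cells and Ihh in the Cdx2-high cells in all 3 embryos, and Shh overlapped.

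Among mesoderm lineages, mesenchyme-like cells had 5 of 8 members above the mean of the other lineages (Ptch1, Smo, Gli2, Gli3 and Hhip), against 18.9% of all genes. Allantois-like cells, which form the base of the umbilical cord and lie next to them, served as the closest comparison, and 5 members were higher in mesenchyme-like cells in 3 of 3 embryos, where 18.1% of all genes differed. Hhip was 5.81 ± 2.91 against 0.632 ± 0.263 CPM (log2 3.24 ± 0.48, edgeR adjusted p = 1.11e-06), and Ptch1 was 208 ± 41.1 against 99.9 ± 17 CPM (log2 1.12 ± 0.15, adjusted p = 7.48e-08). The calls of both held in every alternative. Gli3 (0.75 ± 0.16, adjusted p = 0.000533), Gli2 (0.73 ± 0.18, adjusted p = 0.00269) and Gli1 (0.80 ± 0.29, adjusted p = 0.0495) were higher too, although Gli3 missed the threshold with lineages from clusters (0.43, adjusted p = 0.0708) and Gli2 without embryo 1 (0.50, 0.141). Gli1 missed it without embryo 2 (0.72, 0.246) or 3 (0.82, 0.245), with lineages from clusters (0.38, 0.359), without a composition factor (0.75, 0.0712) and by limma (0.64, 0.288).

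Paraxial-mesoderm-like cells differed from presomitic-mesoderm-like cells, from which they arise, in 1 of 8 members, where 8.19% of all genes differed. This was Ptch1, with 132, 120 and 123 CPM against 71.6, 71.1 and 76.6 CPM and no overlap (log2 0.76 ± 0.15, edgeR adjusted p = 0.000302), but with lineages taken from clusters the difference was 0.37 with an adjusted p of 0.216. Gli3 passed only with the embryo as a block (0.38, adjusted p = 0.0274, against 0.37 and 0.225 without it). Pharyngeal-mesoderm-like and cardiomyocyte-like cells, the progenitors and the muscle of the heart field, also differed in 1 of 8 members (7.67% of all genes), which was again Ptch1. It was lower by 0.72 ± 0.16 on the log2 scale in the pharyngeal cells (adjusted p = 0.00204), and -0.11 with an adjusted p of 0.86 by clusters. Forebrain-like and other-neural-plate-like cells differed in 0 of 8 members (1.4% of all genes, edgeR), with 4 at an unadjusted p under 0.05 and 0 called by DESeq2 or limma, although Ptch1 passed with the embryo as a block (0.54, adjusted p = 0.0482, against 0.11 without it). In both neural lineages Shh stayed at 0.502 ± 0.312 and 0.0531 ± 0.092 CPM.

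Smo (chr6:29735503-29761365, plus strand), the transducer, was spread evenly. Its means ran from 98.2 ± 15.2 CPM in axial-mesoderm-like cells to 52.4 ± 1.34 CPM in primordial-germ-cell-like cells with overlap between neighbours, and then fell without overlap to 44.9 ± 6.34 CPM in erythroid-like and 17.4 ± 2.26 CPM in visceral-endoderm-like cells. Its decrease in visceral-endoderm-like cells was -1.82 ± 0.08 (log2, edgeR adjusted p = 4.02e-24), while the increase in axial-mesoderm-like cells was 0.56 ± 0.10 (adjusted p = 3.99e-05). Smo was called higher in 8 lineages, by between 0.20 and 0.56 on the log2 scale, and lower in 3. The increases in cardiomyocyte-like and other-neural-plate-like cells were lost in 8 and 7 alternatives, those in left-right-organizer-like, paraxial-mesoderm-like and pharyngeal-mesoderm-like cells in 3 each, and the decreases in endothelium-like and erythroid-like cells in 2 each.

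Gli2 (chr1:118834132-119053619, minus strand) had its highest mean in other-neural-plate-like cells with 19.8, 17 and 18.4 CPM, log2 1.32 above the mean of the other lineages, and next in mesenchyme-like cells with 20.3, 14.3 and 14.1 CPM, which overlapped them and were higher in embryo 1. It was low in definitive-endoderm-like cells at 3.57 ± 0.926 CPM (log2 -1.28 ± 0.19, edgeR adjusted p = 2.18e-07) and in visceral-endoderm-like cells at 1.54 ± 0.249 CPM. Gli3 (chr13:15463235-15730026, plus strand) was highest in mesenchyme-like cells with 77.2, 57.9 and 64.9 CPM (log2 1.15 ± 0.11, adjusted p = 6.78e-12). In definitive-endoderm-like cells it stood at 33.2 ± 9.12 CPM and did not differ detectably from the mean of the other lineages (log2 0.04 ± 0.13, adjusted p = 0.879), while visceral-endoderm-like and erythroid-like cells had 4.97 ± 1.03 and 3.39 ± 1.49 CPM. In axial-mesoderm-like cells, where Gli1 was highest, neither Gli2 (7.72 ± 3.00 CPM, log2 0.01 ± 0.28) nor Gli3 (29.6 ± 7.72 CPM, log2 -0.12 ± 0.23) passed the test.

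**Figure D5:**
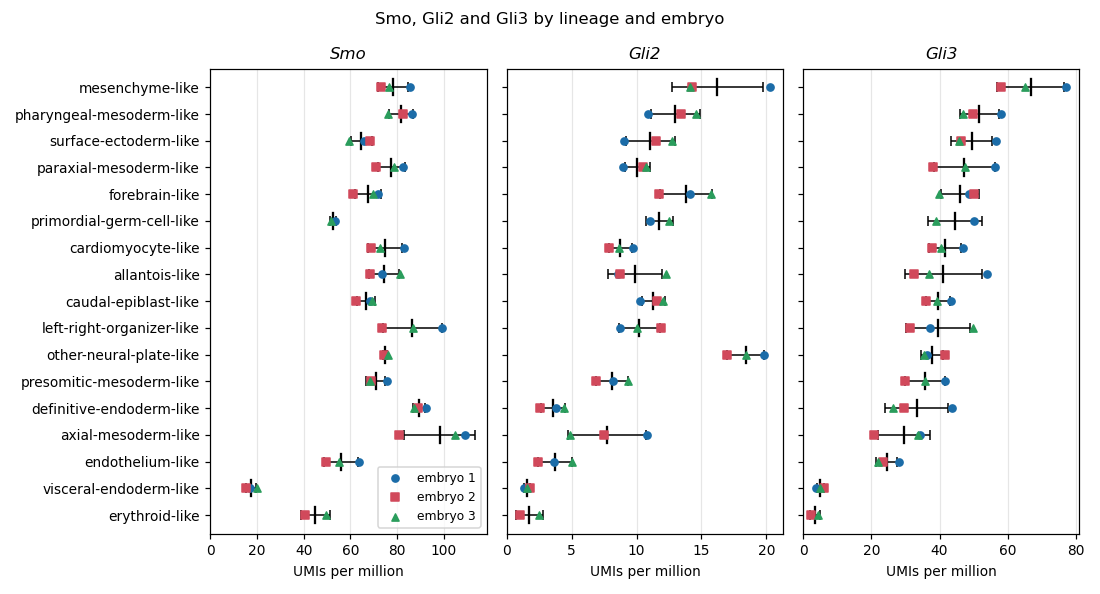
Levels of Smo, Gli2 and Gli3 in CPM (x axes, linear, each with its own range) in the 17 lineages, ordered by the mean of Gli3. Points are embryos, the vertical bar the mean and the whisker the SD. Erythroid-like and visceral-endoderm-like cells were lowest for all 3 genes, and mesenchyme-like cells were highest for Gli3 at 66.7.

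Most cells with Shh in the axial lineages also held Ptch1. Of the 91 axial-mesoderm-like cells with a UMI of Shh, 87 also had Ptch1, 35 had Gli1 and 12 had Hhip. The share of Shh-bearing cells with Ptch1 was 95.8% ± 3.74 over embryos, and 82.6% when cells were thinned to 5000 UMIs. Of the 140 left-right-organizer-like cells with Shh, 125 had Ptch1, 35 had Gli1 and 5 had Hhip. Of the cells of these lineages in which Shh was not seen, 83.3% and 91.2% had Ptch1. Hhip was seen in 13.2% of the axial-mesoderm-like cells with Shh and in 33.3% of those without. As 91 of the 103 axial-mesoderm-like cells had Shh, the shares without it, also for Ptch1, rest on few cells. For Hhip they were 22.2% against 60%, 8.33% against 0% and 10.7% against 20% in embryos 1, 2 and 3, so embryo 2 had the opposite order. After thinning, Ptch1 was seen in 76.9% of the left-right-organizer-like cells with Shh and in 47.1% of those without, so the order there changed with the depth used. In definitive-endoderm-like cells, 115 cells had Shh, 318 had Ihh and 48 had both. Pooled over embryos, Ihh was seen in 41.7% of the cells with Shh and in 38.1% of those without. By embryo the shares were 37.8% against 43.7%, 48.1% against 35.1% and 33.3% against 35.3%, so embryos 1 and 3 had the opposite order. Of the 1072 visceral-endoderm-like cells with Ihh, 324 had Ptch1 (30.2%, against 24% of those without Ihh), shares below those of erythroid-like cells. These shares depend on the depth of a cell, so that a cell with many UMIs is more likely to show both genes, and after thinning the order in the visceral lineage was 7.75% against 8.82%.

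The other genes of the pathway were grouped as ligand release (5 genes), co-receptors and membrane binders (6), signal transduction at the cilium (12) and genes known to respond to the signal elsewhere (8, of which 7 passed the filter on low counts). In axial-mesoderm-like cells 7 of the 30 tested genes were higher by edgeR, where 8.82% of all genes were, among them 3 of 6 co-receptors, 1 of 12 transduction genes and 3 of 7 responsive genes. By edgeR 0 were lower, 0 also at an unadjusted p under 0.05, but 3 genes could not be called lower because a lineage had no UMI of them, and limma on log2(CPM + 1), which has no such limit, called 4 lower. The median log2 difference was 0.17 over these 30 genes and -0.02 over all genes. The responsive genes were the homeobox genes Nkx2-2 (13.4 CPM), Nkx2-9 (19.6 CPM) and Nkx6-1 (10.1 CPM), of which the last was higher by 2.43 ± 0.54 (adjusted p = 0.00091) but in only 2 of 3 embryos. The co-receptor Cdon was higher by 1.54 ± 0.29 (adjusted p = 0.000107).

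In left-right-organizer-like cells 11 of 30 were higher by edgeR, where 20.7% of all genes were, with a median of 0.33 against 0.03 over all genes. They included Disp1 (1.33 ± 0.29, adjusted p = 0.000271), which releases the ligand from the cell, and Cdon (1.08 ± 0.24, adjusted p = 0.000377). Of the transduction genes 5 of 12 were higher, led by Stk36 at 53.3 CPM and Ift88 at 74.8 CPM (2.16 ± 0.13, adjusted p = 6.08e-19), both genes of cilia. By edgeR 0 were lower (1 at an unadjusted p under 0.05), 4 could not be called lower, and limma called 5 lower. Against axial-mesoderm-like cells, Ift88 was higher by 1.84 ± 0.24 (edgeR adjusted p = 8.96e-08), while Nkx2-2 was lower by 3.88 ± 0.82 on the log2 scale (adjusted p = 0.000743). The markers that set the left-right-organizer-like cells included cilium genes such as Foxj1, Cfap126 and Tekt1. Higher cilium genes in these cells, in either comparison, were therefore not independent of how the cells were picked.

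In mesenchyme-like cells 10 of 30 were higher, where 18.9% of all genes were, and 1 lower (median 0.26, against -0.03 over all genes). Of all genes called in mesenchyme-like cells, 59.7% were higher. Foxf1, a forkhead gene of gut and lateral mesoderm, stood at 119 CPM (log2 3.45 ± 0.12, adjusted p = 4.99e-27), and the co-receptor Lrp2 at 74.9 CPM (2.29 ± 0.12, adjusted p = 2.54e-21). Visceral-endoderm-like cells had 6 of 30 higher and 14 lower, where 32.7% of all genes were lower (median -0.61, against -0.03 over all genes). Of all genes called in that lineage, 53.3% were higher. The co-receptor Gas1 was lower there (-2.72 ± 0.17, adjusted p = 1.83e-18), while Lrp2, which also takes up nutrients in that tissue, was higher at 234 CPM (4.26 ± 0.09, adjusted p = 1.55e-36). Definitive-endoderm-like cells had 9 of 30 higher, near the 25.7% of all genes, and 7 lower (median 0.00, against 0.01 over all genes). Of all genes called in this lineage, 57% were higher. Among the 30, Gpc3 (1.37 ± 0.09, edgeR adjusted p = 5.87e-17) was higher and Foxf1 (-2.06 ± 0.26, adjusted p = 8.36e-09) lower.

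The genes whose level over the 17 lineages was most like that of a member were searched among 10301 genes, as a description in which all points come from the same 3 libraries. For Shh they were Pkd1l1, a channel gene of the left-right organizer (r = 0.995), Chrd, itself an axial marker (0.983), 9530036O11Rik (0.982), Gm26894 (0.981) and Mnx1 (0.955). For Ihh they were 1700011H14Rik (0.982), Fgfr4 (0.970), Lect2, Foxa3 (both 0.951) and Spink1 (0.949). For Ptch1, Gli1 was the third closest gene (0.872) after Ppp1cb (0.889) and Cldn11 (0.874), and for Gli1, Ptch1 was the fourth, after Ppp1r1a (0.889), Eny2 (0.882) and Gm37494 (0.880). Frem1 stood on the lists of Ptch1 (0.871) and of Hhip (0.834), the latter led by Myl9 (0.865) and Pawr (0.844). The closest genes were Basp1 (0.981) for Gli3, Kif5c (0.908) for Gli2 and Ttc3 (0.95) for Smo.

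Because Ptch1 and Hhip are both read as targets and were called higher together in axial-mesoderm-like, mesenchyme-like and cardiomyocyte-like cells but not elsewhere among the 17 lineages, the 250 bases before their start sites are shown, from RefSeq promoter windows (build GRCm38.p6, minus strand, 5′ to 3′). The Ptch1 window (chr13:63565736-63565985) belongs to a start site inside the gene and not to its outermost one.
Ptch1: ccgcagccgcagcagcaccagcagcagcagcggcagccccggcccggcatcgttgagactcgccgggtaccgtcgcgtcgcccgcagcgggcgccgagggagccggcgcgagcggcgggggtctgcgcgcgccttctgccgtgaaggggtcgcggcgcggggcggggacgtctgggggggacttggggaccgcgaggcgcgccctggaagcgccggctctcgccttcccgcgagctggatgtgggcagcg
Hhip: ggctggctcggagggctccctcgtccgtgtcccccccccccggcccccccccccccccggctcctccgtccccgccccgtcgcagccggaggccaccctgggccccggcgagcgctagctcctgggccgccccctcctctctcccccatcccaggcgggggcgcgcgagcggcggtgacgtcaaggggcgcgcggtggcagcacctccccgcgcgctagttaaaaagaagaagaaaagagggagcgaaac
The Hhip window lies at chr8:80058009-80058258. Both are rich in G and C (78.4% and 76.0%) and hold 41 and 28 CG pairs. The Gli motif GACCACCCA was searched on both strands of the 300-base windows, which reach 50 bases past the start. It was in 83 of 32851 windows (0.253%) and in 0 of the 7 windows of members, those of Ihh, Dhh, Ptch1, Smo, Gli2, Gli3 and Hhip. With 1 mismatch allowed in the 250 bases before the start, 5.79% of all windows and again 0 of these 7 held it, so no letters are in capitals. Shh and Gli1 had no window in the table.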

How the data were processed

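The authors deposited raw UMI counts per gene and cell barcode, made with Cell Ranger 3.1.0 on mm10 with an EGFP sequence added; the 3 libraries are separate embryos and 0 value columns were unmapped. Cells were kept with at least 1500 genes, at most 8500, 7500 and 8500 genes in embryos 1, 2 and 3, and between 1% and 10% mitochondrial UMIs. A cell took the lineage with the highest mean marker z-score (capped at 5) if that score was at least 1, exceeded the next by 0.5 and rested on at least 3 markers. Scrublet called 2, 1 and 1 cells and so did not work on these data. Instead, cells that also met a lineage not treated as a neighbour of their best one were left out. Cells that met neighbouring lineages stayed if the margin of 0.5 held. Leaving out the 6% with the highest doublet scores was an alternative. These scores came from the same Scrublet runs, so this alternative is a weak check on doublets. Counts were summed per lineage and embryo (at least 10 cells) and tested by edgeR's quasi-likelihood test with TMM factors and Benjamini-Hochberg adjustment over all 14033 genes that passed its filter, at an adjusted p of 0.05. Each lineage was set against the mean of the others, so these comparisons share sums, and 6 pairs of lineages were compared directly.

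The embryo number pairs the sums, since cells of a number come from the same animal: deviations from lineage means correlated with a median of 0.163 within an embryo (315 pairs, 0.0312 to 0.347) and -0.0773 between embryos (630 pairs). Shares of cells were also taken after thinning to 5000 UMIs. Alternatives were DESeq2, no composition factor, no filter, a block for the embryo, omission of single embryos, lineages from clusters, a stricter margin, the doublet scores and keeping the barcodes nearly without mitochondrial UMIs. Added after seeing the data were leaving out the germ-cell-like sums, limma on log2(CPM + 1) and thinning in the counts of cells with both genes. The members, the marker and pathway lists and the tests were chosen with earlier results of these data known. The genes named are the members, up to 3 genes of each pathway list with the largest change past the threshold in a comparison, and, for members with at least 50 UMIs, up to 5 genes with the highest Pearson correlation of log2(mean CPM + 1) over the lineages among genes that reach 10 CPM. Embryo pairs shared between 10 and 18 kept barcodes, treated as different cells. The edgeR test of axial-mesoderm-like cells was tried on simulated counts, with equal means in the other lineages and no effect of the embryo. This trial was not set up to cover the pairing of sums or lineages without a UMI of a gene. Tools were Python 3.11.15, scanpy 1.11.5, numpy 2.4.6, scipy 1.17.1, R 4.3.3, edgeR 4.0.16, DESeq2 1.42.0 and limma 3.58.1. Gene positions are from GENCODE M21. The values of 1 gene of the pathway lists are not reported here.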

Additional observations from a re-analysis of the deposited data

How the results depend on the processing

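Of 89 calls of a member in the main tests, 55 held in every alternative that could be fitted, 34 were lost in at least 1 and 0 turned direction. With the embryo as a replicate block, all 89 held, and beyond the members named beside their results the block added calls of Gli2, Smo and Hhip in allantois-like cells and Gli2 in paraxial-mesoderm-like cells. Counts of members that differed moved as follows. Between left-right-organizer-like and axial-mesoderm-like cells there were 4, but 1 to 2 with an embryo left out and 2 with lineages from clusters, of which only Ptch1 was among the 4. With lineages from clusters the count fell from 5 to 3 between mesenchyme-like and allantois-like cells, and from 1 to 0 both between paraxial-mesoderm-like and presomitic-mesoderm-like cells and between pharyngeal-mesoderm-like and cardiomyocyte-like cells. With the embryo as a replicate block it was 2 for the paraxial pair and 1 for the forebrain pair, which also had 1 with no filter on low counts. The share of Shh-bearing axial-mesoderm-like cells with Ptch1 went from 95.8% to 82.6% after thinning, which removes UMIs by construction. The cause of the other changes was not tested.

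Without a composition factor the median over all genes shifted by -0.21 in visceral-endoderm-like cells, 0.13 in left-right-organizer-like cells and 0.26 between definitive and visceral endoderm, and the share of calls that were higher went from 53.3% to 42.2%, from 60.6% to 79.4% and from 48.0% to 65.1%. That share went from 59.6% to 76.4% in axial-mesoderm-like cells (74.4% by DESeq2), to 71.0% by DESeq2 in left-right-organizer-like cells, and from 57.0% to 68.0% in definitive-endoderm-like cells. Gli1 in definitive-endoderm-like cells was called lower (-0.81, adjusted p = 0.00902, edgeR) but not without embryo 2 (-0.52, 0.18) or 3 (-0.83, 0.052) or with lineages from clusters (-0.38, 0.21). Dhh in all lineages, and Hhip and Ihh in the axial-mesoderm-like and left-right-organizer-like cells, rest on few UMIs, and the parts of depth, cell number and low expression in this were not tested.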
